A study of Mus musculus with 16 samples.

Results

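The Cyp4a genes encode cytochrome P450 enzymes of the endoplasmic reticulum that add a hydroxyl group to the terminal carbon of fatty acids (omega hydroxylation). The members were chosen by symbol in the liver gene table and are 6 of its 8 Cyp4a symbols and 6 of 24082 genes in all, namely Cyp4a10, Cyp4a14, Cyp4a31, Cyp4a32, Cyp4a12a and Cyp4a12b. The other 2 symbols, Cyp4a29 and Cyp4a30b, had no read in any library. The family was chosen because of its levels and differences in these same libraries, so the values of the members are a description, and no p-value is given for them. Where a member is said to be past the threshold of the fit over all genes, this only places it beside the share of all genes past it.

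Omega hydroxylation opens a side route for fatty acids that are not burned in mitochondria. Alcohol and aldehyde dehydrogenases turn the product into a dicarboxylic acid, which peroxisomes then shorten, with electrons for the P450 step delivered by P450 oxidoreductase (Por). In rodent liver Cyp4a10 and Cyp4a14 are classical targets of PPARA, the nuclear receptor that senses fatty acids and fibrate drugs, and Cyp4a12 genes are known for higher expression in males and for making the eicosanoid 20-HETE.

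The libraries were made from liver RNA of 16 female C57BL6/J mice aged 9 to 11 weeks, with 4 mice in each of 4 groups. Pair Vehicle mice were pair-fed a liquid control diet in which maltose dextrin replaced ethanol, and Pair IMC mice received iodomethylcholine (IMC) in that diet at 0.06% wt/wt. Ethanol Vehicle mice received the Lieber-DeCarli ethanol diet for 25 days with ethanol raised to 6% vol/vol, and Ethanol IMC mice received the same diet with IMC. IMC inhibits the gut microbial choline trimethylamine lyase CutC, an enzyme of gut bacteria. According to the study, ethanol-fed mice given IMC ate less and weighed less than those without it. The study also marks a body weight difference between pair-fed mice with and without IMC. In neither diet can these differences be told apart from IMC in the liver values. The study asked how IMC alters the liver transcriptome under each diet.

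The libraries held 9632659 to 12601199 reads assigned to genes. Levels are normalized counts, that is, deposited counts rescaled to a common level over the 16 libraries, and mice are named by the library number in their label. Numbers 1 to 8 hold Pair IMC and Ethanol Vehicle and numbers 9 to 16 hold Pair Vehicle and Ethanol IMC, so a contrast within 1 diet or between the diets cannot be told apart from this numbering. IMC against vehicle over the mean of the diets is the exception, since each numbering block then holds both. Hepatocyte genes were abundant in each group, the 7 kidney tubule genes listed summed to at most 15.9 normalized counts in any mouse, with 3 of them at 0 in every group, and 5 of 7 pancreas acinar genes had no read. In bulk liver, fewer cells of a type and less RNA per cell cannot be told apart.

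The 6 genes lie in one cluster on chromosome 4 of GRCm38, from the start of Cyp4a12a (chr4:115299046-115332815) to the end of Cyp4a32 (chr4:115600969-115621602), in the GENCODE vM21 annotation. Cyp4a14 (chr4:115486200-115496142) is on the minus strand, next to Cyp4a10 (chr4:115518264-115533649), and the other members are on the plus strand. Their coding sequences fall into 3 kinds. Cyp4a10, Cyp4a31 (chr4:115563649-115579015) and Cyp4a32 were 96.0% to 97.2% identical to each other, Cyp4a12a and Cyp4a12b (chr4:115411624-115439034) were 98.5% identical, and Cyp4a14 was 75.0% to 75.9% identical to any other member.

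These kinds are visible in the haem-binding loop, the stretch around the cysteine that holds the haem iron in every P450. The 60 coding bases below, which cross from exon 11 to exon 12, are shown 5′ to 3′ because they show how far Cyp4a14 stands from the rest, with capitals for bases that differ from Cyp4a10 (Cyp4a10, chr4:115529487-115532558, plus strand; Cyp4a14, chr4:115487284-115489820, minus strand; Cyp4a12a, chr4:115328971-115331861, plus strand; GRCm38, intron included).
Cyp4a10: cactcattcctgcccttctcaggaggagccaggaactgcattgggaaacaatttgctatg
Cyp4a14: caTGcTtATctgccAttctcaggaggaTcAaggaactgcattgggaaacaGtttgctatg
Cyp4a12a: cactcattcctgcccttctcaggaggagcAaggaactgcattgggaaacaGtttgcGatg
Cyp4a14 differed from Cyp4a10 at 9 of the 60 bases and Cyp4a12a at 3. Cyp4a31 and Cyp4a32 had the same 60 bases as Cyp4a10, and Cyp4a12b had the same as Cyp4a12a.

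Reads can be assigned within the Cyp4a10 group only where the genes differ. A stretch of 60 coding bases in exon 2 held 9 of the 77 positions at which Cyp4a10, Cyp4a31 and Cyp4a32 are not all alike, out of 1527 coding bases, and is shown for that reason with those positions in capitals (Cyp4a10, chr4:115519640-115519699; Cyp4a31, chr4:115565020-115565079; Cyp4a32, chr4:115602270-115602329; all plus strand, GRCm38).
Cyp4a10: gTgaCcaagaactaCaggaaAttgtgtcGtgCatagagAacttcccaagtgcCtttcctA
Cyp4a31: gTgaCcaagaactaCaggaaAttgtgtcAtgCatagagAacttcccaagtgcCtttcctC
Cyp4a32: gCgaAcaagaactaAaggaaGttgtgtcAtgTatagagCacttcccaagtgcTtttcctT
Of all 100-base windows of the annotated transcript, 12.7% for Cyp4a10, 8.22% for Cyp4a31 and 20.1% for Cyp4a32 occurred without change in another member. No window of Cyp4a14 did. For Cyp4a12a and Cyp4a12b the shares were 35.8% and 36.2%. How the study counted reads that fit several genes is not given in the sources used here, so the split among Cyp4a10, Cyp4a31 and Cyp4a32, and between the 2 Cyp4a12 genes, is uncertain to that extent.

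Cyp4a14 and Cyp4a10 carried nearly all Cyp4a reads. Per kilobase of exon, Cyp4a14 ranked 69th among the 12522 genes tested in Pair Vehicle, 30th in Pair IMC, 70th in Ethanol Vehicle and 39th in Ethanol IMC. Cyp4a10 ranked between 92nd and 133rd. Cyp4a32 was between rank 3165 and rank 3317, whereas the rank of Cyp4a31 ran from 6225 in Ethanol Vehicle to 1527 in Pair IMC. Cyp4a14 was above Cyp4a10 per kilobase by group mean in all 4 groups, while Cyp4a31 was above Cyp4a32 only in Pair IMC.

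Cyp4a14, a lauric acid omega hydroxylase and the most abundant member, was higher with IMC in both diets by group mean. In Pair Vehicle the 4 mice had 17162.5, 9893, 21370 and 17599 normalized counts (16506 ± 4796, SD, n = 4), and in Pair IMC they had 32598, 46006, 46719 and 28089 (38353 ± 9434, SD, n = 4). Every Pair IMC mouse was above every Pair Vehicle mouse. The Ethanol Vehicle mice had 24088, 12394, 26200 and 13888 (19142 ± 7010, SD, n = 4). The Ethanol IMC mice had 21710, 53385, 27282 and 27220 (32399 ± 14232, SD, n = 4). Under ethanol the groups overlapped, since mouse 9 of Ethanol IMC was below 2 of the Ethanol Vehicle mice, and mouse 11 was far above the other 3 of its group.

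Cyp4a10, which shares the substrate and the PPARA control of Cyp4a14, had its highest group mean in Ethanol Vehicle. The Pair Vehicle mice had 7071, 3877, 10920 and 8476 normalized counts (7586 ± 2940, SD, n = 4) and the Pair IMC mice 8421, 8145, 11514 and 7329 (8852 ± 1834, SD, n = 4). These groups overlapped. The Ethanol Vehicle mice had 13100, 8839, 13084 and 8807 (10957 ± 2465, SD, n = 4). Of the Ethanol IMC mice, 3 had 3803, 4166 and 5128, below every Ethanol Vehicle mouse, and mouse 11 had 20302, the highest value of all 16, so that the group mean was 8350 ± 7988 (SD, n = 4).

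Cyp4a31, a close copy of Cyp4a10 with a lower level, varied the most of the 4 expressed members on the log2 scale. In Pair Vehicle the mice had 192, 93.3, 206 and 361 normalized counts (213 ± 111, SD, n = 4) and in Pair IMC 724, 729, 810 and 531 (698 ± 118, SD, n = 4). No Pair Vehicle mouse reached the lowest Pair IMC mouse. The Ethanol Vehicle mice had 120, 85.0, 139 and 76.2 (105 ± 29.6, SD, n = 4) and the Ethanol IMC mice 158, 435, 234 and 147 (244 ± 134, SD, n = 4). These groups did not overlap either, but the lowest Ethanol IMC mouse was close to the highest Ethanol Vehicle mouse. The order of the group means was Pair IMC, Ethanol IMC, Pair Vehicle, Ethanol Vehicle, and the values of Ethanol IMC and Pair Vehicle overlapped.

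Cyp4a32, the other close copy of Cyp4a10, was level across the groups. The mean was 179 ± 50.6 normalized counts in Pair Vehicle, 180 ± 56.5 in Pair IMC, 164 ± 55.6 in Ethanol Vehicle and 179 ± 64.9 in Ethanol IMC (SD, n = 4 each). All values lay between 89.2 and 272, and all 4 groups overlapped. The highest was again mouse 11 of Ethanol IMC.

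Cyp4a12a and Cyp4a12b, the male-biased members, were at or near 0 in these females. Cyp4a12a had 19 reads over all 16 libraries, with 9 in Pair Vehicle, 0 in Pair IMC, 3 in Ethanol Vehicle and 7 in Ethanol IMC. Cyp4a12b had 2 reads, 1 each in Ethanol Vehicle and Ethanol IMC. For a library with no read, counting error alone allows up to 3 reads. Neither gene passed the filter on low values, so 4 of the 6 members entered the fit.

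**Figure D1:**
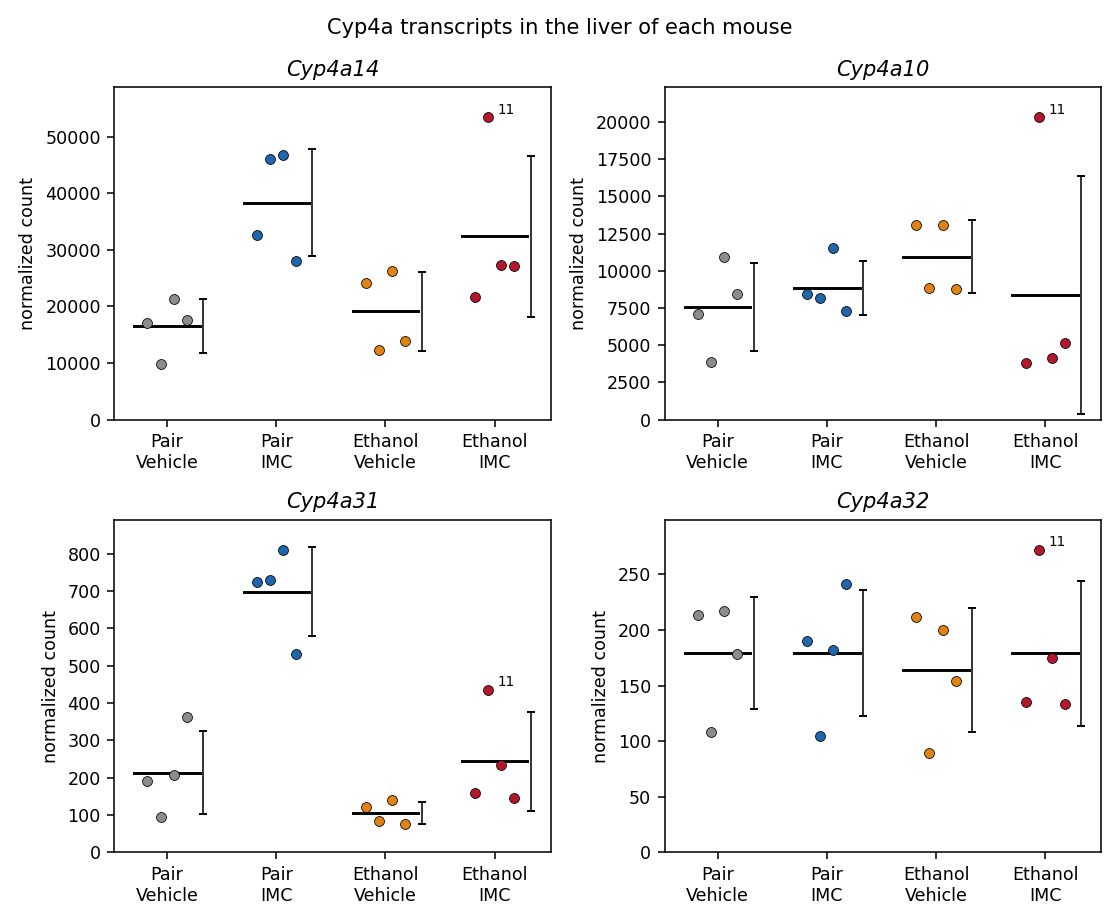
Normalized count (vertical axis, linear, from 0) of the 4 expressed Cyp4a genes in each mouse, by group; points are mice, horizontal bars are group means and error bars are SD (n = 4). Pair IMC lies wholly above Pair Vehicle for Cyp4a14 and Cyp4a31, Cyp4a32 is alike in all groups, and the mouse marked 11 is the highest Ethanol IMC mouse in each panel.

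Differences between groups are given as log2 differences of normalized count + 1 from a limma fit over all genes tested, with standard errors (SE), so a low gene's change is understated. In pair-fed mice, IMC against vehicle gave 1.85 (SE 0.35) for Cyp4a31, a 3.60-fold difference, and 1.24 (SE 0.30) for Cyp4a14, a 2.36-fold difference. Cyp4a10 differed by 0.30 (SE 0.40, 95% interval -0.55 to 1.15) and Cyp4a32 by -0.01 (SE 0.30, 95% interval -0.65 to 0.63). Cyp4a31 and Cyp4a14 were past the threshold, an adjusted p of 0.05, as were 9.49% of all genes tested. Both also did not overlap between the groups, as did 14.3% of all genes. Nothing is read from these counts because the family was chosen on this contrast. The study, which reported these same libraries, names Cyp4a31 among the genes increased by IMC in pair-fed mice. For Cyp4a14 the value was 1.01 without Pair Vehicle mouse 12, 1.14 without Pair IMC mouse 4 and 1.13 without Pair IMC mouse 6, and it was then not past the threshold.

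In ethanol-fed mice, Cyp4a31 and Cyp4a14 again had positive IMC differences. Cyp4a31 differed by 1.11 (SE 0.35), 2.15-fold, and Cyp4a14 by 0.75 (SE 0.30), 1.68-fold. Cyp4a10 differed by -0.75 (SE 0.40, 95% interval -1.60 to 0.09) and Cyp4a32 by 0.14 (SE 0.30, 95% interval -0.50 to 0.78). Cyp4a31 alone was past the threshold and alone did not overlap, beside 21.5% and 25.3% of all genes tested. Its value was 0.78 without Ethanol IMC mouse 11, 0.97 without Ethanol Vehicle mouse 7, 1.02 without Ethanol Vehicle mouse 3 and 1.08 without Ethanol IMC mouse 13, and in each of these fits it was not past the threshold.

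Without mouse 11 the Cyp4a10 difference in ethanol-fed mice was -1.31 and past the threshold, whereas edgeR on the whole reads of all mice gave -0.39, not past it. The IMC effects were set against each other between the diets with an interaction term. This difference, ethanol-fed minus pair-fed, was -1.05 (SE 0.57) for Cyp4a10, -0.74 (SE 0.49) for Cyp4a31, -0.49 (SE 0.42) for Cyp4a14 and 0.14 (SE 0.43) for Cyp4a32. None was past the threshold, beside 1.11% of all genes, and without mouse 11 Cyp4a10 was, at -1.61. Averaged over the diets, IMC gave 1.48 (SE 0.25) for Cyp4a31, 0.99 (SE 0.21) for Cyp4a14, 0.07 (SE 0.21) for Cyp4a32 and -0.23 (SE 0.29) for Cyp4a10. Cyp4a31 and Cyp4a14 were past the threshold there, beside 28.2% of all genes tested, and both were so with any 1 library left out. Without mouse 11 Cyp4a10 was also past it, at -0.51.

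Ethanol differences were led by Cyp4a31, in the direction opposite to IMC. In vehicle mice Cyp4a31 was lower with ethanol by -0.90 (SE 0.35), which was not past the threshold but was without Pair Vehicle mouse 12, at -1.24. Cyp4a10 differed by 0.60 (SE 0.40, 95% interval -0.25 to 1.45), Cyp4a14 by 0.19 (SE 0.30, 95% interval -0.44 to 0.82) and Cyp4a32 by -0.15 (SE 0.30, 95% interval -0.79 to 0.49). None of the 4 was past the threshold and all overlapped, beside 11.9% of all genes past it and 19% without overlap. In IMC mice Cyp4a31 was lower with ethanol by -1.64 (SE 0.35), past the threshold and without overlap, beside 16.5% and 19.2% of all genes. Cyp4a10 differed by -0.45 (SE 0.40), Cyp4a14 by -0.30 (SE 0.30) and Cyp4a32 by -0.01 (SE 0.30) in these mice. The Cyp4a10 value was -1.01 and past the threshold without mouse 11, -0.08 in edgeR on whole reads and 0.10 in edgeR without library 15. The ethanol and IMC contrasts share groups, so their values are not independent of each other.

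**Figure D2:**
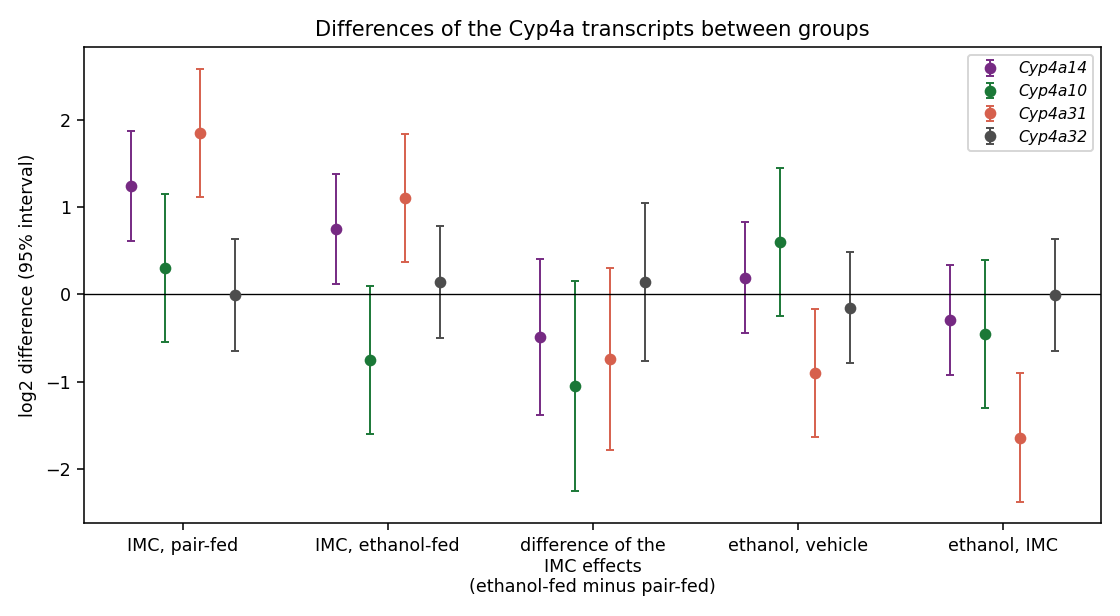
Log2 difference (vertical axis) of the 4 expressed Cyp4a genes in each contrast (horizontal axis), with 95% intervals as error bars. Cyp4a31 and Cyp4a14 lie above 0 for IMC in both diets, Cyp4a31 lies below 0 for ethanol, and Cyp4a32 stays near 0 throughout.

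Ratios of reads within a library do not depend on how libraries were scaled. Reads of Cyp4a14 per read of Cyp4a10 were 2.25 ± 0.282 in Pair Vehicle, 4.35 ± 0.870 in Pair IMC, 1.71 ± 0.267 in Ethanol Vehicle and 5.05 ± 1.69 in Ethanol IMC (SD, n = 4 each). The IMC mice lay above the vehicle mice without overlap in both diets, at 3.83 to 5.65 against 1.96 to 2.55 in pair-fed mice and at 2.63 to 6.55 in ethanol-fed mice. Mouse 11, with high levels of both genes, had the lowest ratio of its group, 2.63, which was above every Ethanol Vehicle mouse. A ratio shows that the pair changed unequally, not which gene moved.

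Cyp4a31 reads came to 2.82% ± 1.02 of Cyp4a10 reads in Pair Vehicle, 7.95% ± 0.960 in Pair IMC, 0.952% ± 0.0837 in Ethanol Vehicle and 3.70% ± 1.53 in Ethanol IMC (SD, n = 4 each). The Ethanol Vehicle mice lay within 0.865% to 1.06%, although their Cyp4a10 levels ranged from 8807 to 13100 normalized counts. Whether Cyp4a31 reads in that group come from Cyp4a10 transcripts was not tested. Reads on all 6 genes made up 0.220% ± 0.0683 of reads in Pair Vehicle, 0.410% ± 0.0973 in Pair IMC, 0.280% ± 0.0954 in Ethanol Vehicle and 0.388% ± 0.210 in Ethanol IMC. Mouse 11 was at 0.701%, and the other 3 Ethanol IMC mice were between 0.256% and 0.299%.

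**Figure D3:**
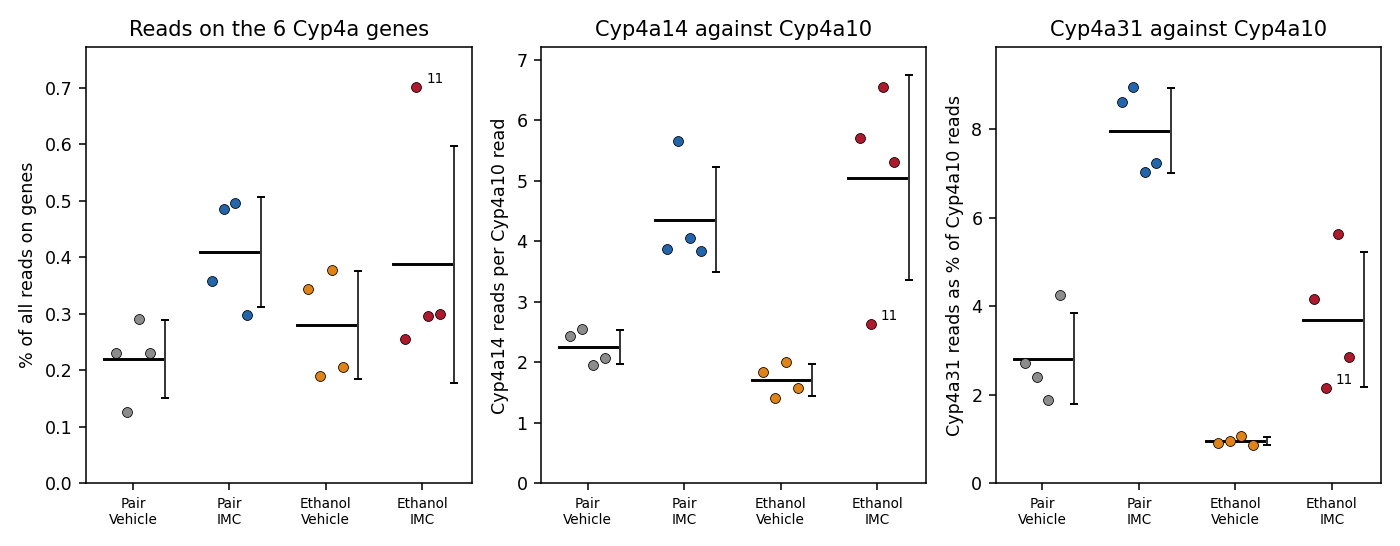
Share of reads on the 6 Cyp4a genes (left, % of reads on genes), Cyp4a14 reads per Cyp4a10 read (middle) and Cyp4a31 reads as % of Cyp4a10 reads (right) in each mouse, by group; horizontal bars are means and error bars SD (n = 4). The middle panel shows the IMC mice above the vehicle mice of the same diet, with mouse 11 at 2.63.

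Mouse 11 of Ethanol IMC was singled out after its values were seen. It was the highest of its 4 mice for all 4 expressed members, with log2 differences from the median of the other 3 of 2.28 for Cyp4a10, 1.45 for Cyp4a31 and 0.97 for Cyp4a14, with Cyp4a32 between the last 2. Over all genes tested it was the highest of the 4 for 26.6%. Among 39 PPARA targets tested it was the highest for 24, or 61.5%, with a median log2 difference of 0.24, led by Eci1 (enoyl-CoA isomerase) and Fabp1 (liver fatty acid binding protein) at 0.56 each. No PPARA target outside the family was as high above the other 3 mice as the members were.

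The sum of 10 genes of the pericentral zone of the lobule was also high in this mouse, mostly through Cyp2e1. The median log2 difference of the 10 from the other 3 mice was only 0.07, and 5 of the 10 were not its group's highest there. The 10 pericentral genes summed to 84300 normalized counts in mouse 11 and to between 54853 and 63811 in the other 3. Cyp2e1, the ethanol-inducible P450, was at 47335 in mouse 11 against 20127 to 24857, and Rgn (regucalcin) was at 10005 against 4292 to 6276. Cyp1a2, also pericentral, was lower in mouse 11, at 3188 against 7518 to 12133. The 10 periportal genes summed to 184190 in mouse 11, within the range of 171989 to 198866 of the other 3. The part of zonation in the Cyp4a values was not tested.

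**Figure D4:**
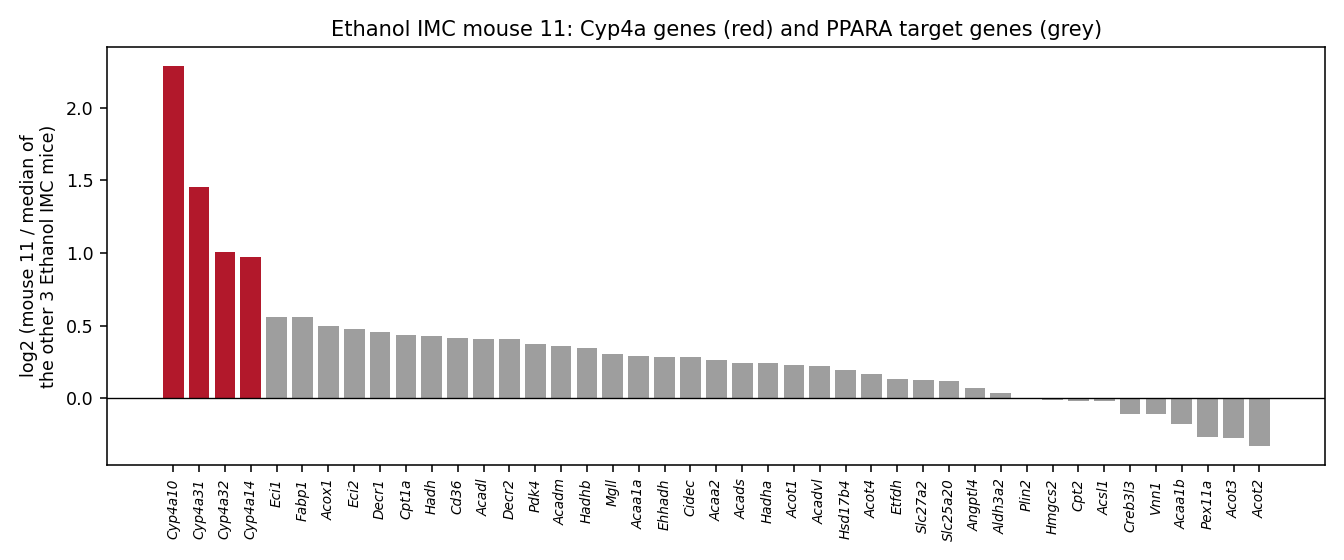
Log2 ratio of the normalized count + 1 in mouse 11 to the median of the other 3 Ethanol IMC mice (vertical axis) for the 4 expressed Cyp4a genes (red) and 39 PPARA target genes (grey), sorted. The 4 Cyp4a genes, at 0.97 to 2.28, stand above all PPARA targets, which reach 0.56.

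The other genes that PPARA is known to induce were counted as a list. Of 39 PPARA targets of fatty acid oxidation, transport and storage tested, 1 rose and 3 fell with IMC in pair-fed mice, beside 9.49% of all genes past the threshold. The median log2 difference was -0.01 against -0.00 for all genes. The list held 40 genes, and Fgf21 was not counted because no gene used here carried that symbol. The study names Fgf21 among the genes that IMC increased in pair-fed mice. Ehhadh, the peroxisomal bifunctional enzyme that shortens dicarboxylic acids, rose by 0.73 (SE 0.19, adjusted p = 0.0261 in limma). Eci1 fell by 0.47, Decr2 (peroxisomal dienoyl-CoA reductase) fell by 0.45, and Acaa1a (peroxisomal thiolase) fell by 0.32. The Ehhadh call was lost without Pair Vehicle mouse 12 and without Pair IMC mice 4 or 6, as was that of Cyp4a14, and none of the 39 passed without Pair IMC mouse 6.

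In ethanol-fed mice 1 PPARA target rose and 9 fell with IMC, with a median log2 difference of -0.23, beside 21.5% of all genes past the threshold. The counts were 1 and 14 without mouse 11 and 1 and 5 without Ethanol Vehicle mouse 1 or Ethanol IMC mice 9 or 13. Pex11a, a factor of peroxisome division, rose by 0.48 (SE 0.12, adjusted p = 0.00746 in limma). Decr2 fell by 0.59 (adjusted p = 0.00191), Etfdh, the dehydrogenase that passes electrons from fatty acid oxidation to ubiquinone, fell by 0.51 (adjusted p = 0.000502), and Acaa1a fell by 0.45 (adjusted p = 0.00246, limma). Averaged over the diets 3 rose and 10 fell, beside 28.2% of all genes past the threshold. The 3 were Angptl4 (an inhibitor of lipoprotein lipase) at 0.54, Pex11a at 0.40 and Ehhadh at 0.39, the last not past the threshold in 9 of the 16 fits with 1 library left out.

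With ethanol in vehicle mice 1 PPARA target rose and 7 fell, beside 11.9% of all genes past the threshold. Among the falls were Pex11a, by 0.75 (adjusted p = 0.000976), and Cpt1a, the carnitine palmitoyltransferase of mitochondrial entry, by 0.54 (adjusted p = 0.00852, limma). The counts depended on the scale, with 8 higher and 2 lower on the deposited scale, and were 2 and 2 without Pair Vehicle mouse 14 and 0 and 3 without Ethanol Vehicle mouse 5. In IMC mice 13 fell and 0 rose with ethanol, with a median of -0.33, beside 16.5% of all genes past the threshold. On the deposited scale 6 were lower and 3 higher. Ehhadh fell by 0.81 (adjusted p = 0.00998), Eci2 fell by 0.86 (adjusted p = 0.0017) and Cpt1a fell by 0.60 (adjusted p = 0.00319, limma).

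**Figure D5:**
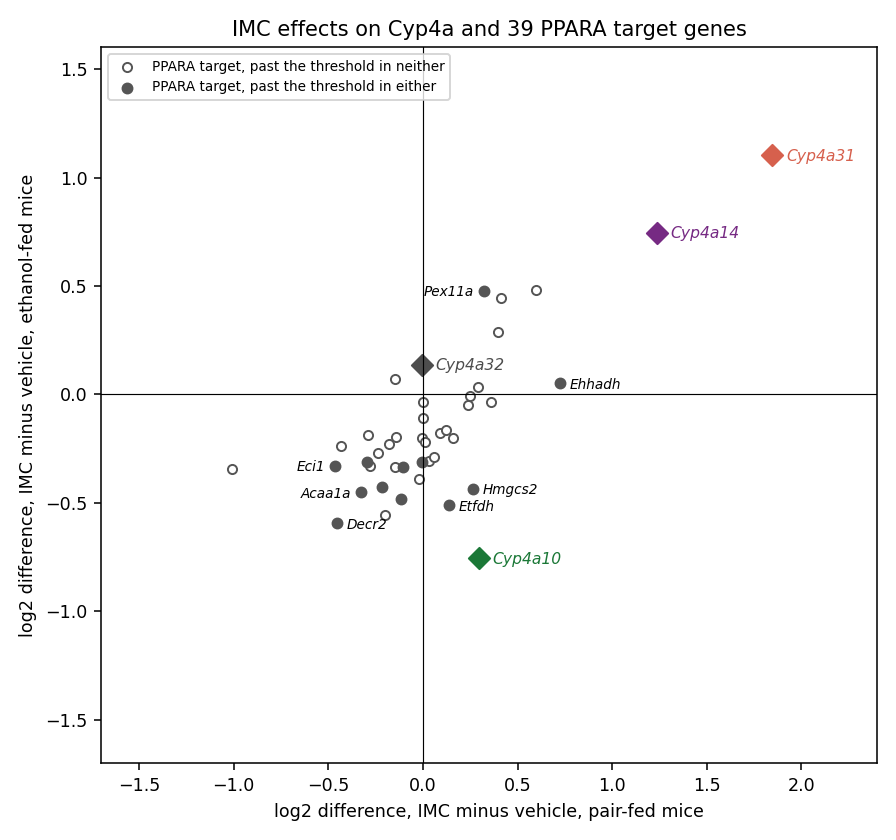
Log2 difference of IMC against vehicle in pair-fed (horizontal axis) and ethanol-fed mice (vertical axis) for the 4 expressed Cyp4a genes (diamonds) and 39 PPARA target genes (circles, filled where past an adjusted p of 0.05 in either diet). Cyp4a31 and Cyp4a14 lie to the upper right of the targets, and Cyp4a10 lies below 0 on the vertical axis.

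Ppara itself had its highest group mean in Pair Vehicle and its lowest in Ethanol IMC. It had 1650 ± 304 normalized counts in Pair Vehicle, 1218 ± 160 in Pair IMC, 1177 ± 134 in Ethanol Vehicle and 840 ± 147 in Ethanol IMC (SD, n = 4 each). Ppara fell by 0.50 with IMC in ethanol-fed mice (adjusted p = 0.0199 in limma) and by 0.46 averaged over the diets (adjusted p = 0.00261). It fell by 0.48 with ethanol in vehicle mice (adjusted p = 0.0378) and by 0.54 with ethanol in IMC mice (adjusted p = 0.0154). These calls were lost without Ethanol Vehicle mice 5 or 7 or Ethanol IMC mouse 15 for IMC in ethanol-fed mice, without Pair Vehicle mice 10 or 14 or Ethanol Vehicle mice 1, 3 or 7 for ethanol in vehicle mice, and without Pair IMC mouse 6 or Ethanol IMC mouse 15 for ethanol in IMC mice. On the deposited scale neither ethanol call held, at -0.29 and -0.35. Averaged over the diets the IMC call held with each library left out. Of the 14 nuclear receptors and cofactors tested, Ppara among them, 2 rose and 0 fell with IMC in pair-fed mice, and 3 rose and 1 fell in ethanol-fed mice. The shares of all genes past the threshold were 9.49% and 21.5%. Hnf4a, a receptor that sets hepatocyte identity, rose by 0.71 in pair-fed (adjusted p = 0.00322) and 0.62 in ethanol-fed mice (adjusted p = 0.00298), and Pparg rose by 0.75 in ethanol-fed mice (adjusted p = 0.00365, limma).

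The steps before and after the hydroxylase were taken from 2 further lists. Of 8 genes for electron transfer to P450 and for haem, only Fech (ferrochelatase) passed for IMC in either diet. It rose by 0.29 in pair-fed mice (adjusted p = 0.0259) and by 0.30 in ethanol-fed mice (adjusted p = 0.0113, limma). Of all genes tested, 9.49% and 21.5% were past the threshold in these contrasts. The pair-fed call of Fech was lost without Pair Vehicle mice 10 or 16 or Pair IMC mice 2, 4 or 6. Alas1, the first enzyme of haem synthesis, rose by 1.08 with ethanol in vehicle mice (adjusted p = 0.0243) and by 1.61 in IMC mice (adjusted p = 0.00151, limma), the former not without Pair Vehicle mouse 10 or Ethanol Vehicle mice 5 or 7. Por was at 3856 to 5165 normalized counts by group mean, and passed in no contrast.

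Of 17 genes tested for the steps after the hydroxylase, 1 rose and 1 fell with IMC in pair-fed mice and 0 rose and 3 fell in ethanol-fed mice. These counts stand beside 9.49% and 21.5% of all genes past the threshold. Acsl5, an acyl-CoA synthetase, fell by 0.65 in ethanol-fed mice (adjusted p = 0.00449, limma). With ethanol 2 rose and 4 fell in vehicle mice, and 2 rose and 6 fell in IMC mice, beside 11.9% and 16.5% of all genes. In vehicle mice all 4 falls and 1 of the 2 rises were lost without Pair Vehicle mouse 14 and again without Ethanol Vehicle mouse 7. Aldh1a1, an aldehyde dehydrogenase, rose by 0.70 (adjusted p = 0.013) and 0.73 (adjusted p = 0.00797, limma).

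Of 15 other Cyp4 genes in the table, 7 were tested. With IMC 0 rose and 1 fell in pair-fed mice and 0 rose and 2 fell in ethanol-fed mice. The shares of all genes past the threshold were 9.49% and 21.5%. Averaged over the diets 1 rose and 2 fell, beside 28.2% of all genes. The rise was that of Cyp4f13, by 0.18 (adjusted p = 0.0331, limma), not past the threshold in 6 of the 16 fits with 1 library left out. Cyp4f14, which hydroxylates leukotriene B4, had 1868 ± 192, 1664 ± 355, 2359 ± 182 and 1123 ± 263 normalized counts in Pair Vehicle, Pair IMC, Ethanol Vehicle and Ethanol IMC (SD, n = 4 each). It fell by 1.09 with IMC in ethanol-fed mice (adjusted p = 0.000111), and the difference between diets, -0.91, passed as well (adjusted p = 0.0471, limma), though not in 12 of the 16 fits with 1 library left out. Cyp4v3, a fatty acid omega hydroxylase of the same superfamily, had 3479 ± 327, 2535 ± 220, 4506 ± 388 and 2688 ± 69.6 in the same order. It fell with IMC by 0.46 in pair-fed mice (adjusted p = 0.0039) and by 0.74 in ethanol-fed mice (adjusted p = 2.77e-05), and rose by 0.37 with ethanol in vehicle mice (adjusted p = 0.0106, limma).

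Lists of sex-biased and zonal genes were set beside the members. For IMC, 9.49% of all genes tested were past the threshold under pair feeding and 21.5% under ethanol. The counts below stand beside these shares. Of 12 genes with higher expression in females, 1 rose and 4 fell with IMC in pair-fed mice and 1 rose and 7 fell in ethanol-fed mice. Without Pair IMC mice 4 or 6 the pair-fed rise, that of Cyp2a4, and the falls of A1bg and Cyp3a44 were not past the threshold. In ethanol-fed mice Cyp3a44 fell by 3.25 (adjusted p = 0.000337) and Cyp3a41a by 3.08 (adjusted p = 0.000773, limma), with means of 1000 ± 339 and 4217 ± 1646 normalized counts in Ethanol Vehicle and 135 ± 105 and 678 ± 571 in Ethanol IMC (SD, n = 4 each). Both are close copies of other Cyp3a genes, so reads may be split among them. Of 8 male-biased genes tested, 1 rose and 1 fell in each diet. Of 10 pericentral genes, 0 rose and 2 fell in pair-fed mice and 0 rose and 4 fell in ethanol-fed mice, among them Oat (ornithine aminotransferase), which fell by 1.17 (adjusted p = 0.00257), and Cyp2e1, which fell by 0.82 (adjusted p = 0.00891, limma). Both pair-fed calls were lost without Pair Vehicle mice 10, 12 or 14 or Pair IMC mice 4 or 6. Of 10 periportal genes, none passed in pair-fed mice, and 1 rose and 1 fell in ethanol-fed mice. Of the markers of other liver cells, none of 8 Kupffer cell or 7 sinusoidal endothelial genes passed for IMC in either diet, 3 of 8 stellate cell genes fell in ethanol-fed mice, and 1 of 6 bile duct genes tested fell in pair-fed mice. Of 8 hepatocyte genes 1 rose in pair-fed mice, and 1 rose and 1 fell in ethanol-fed mice. Of 2 adipocyte genes tested none passed, and the only pancreas acinar gene tested fell in pair-fed mice. The bile duct and acinar calls were each lost without Pair Vehicle mice 10 or 12 or Pair IMC mice 4 or 6. The 7 acinar genes summed to at most 42.8 normalized counts in any Pair Vehicle mouse and 16.3 in any Pair IMC mouse. The part of all these lists in the Cyp4a values was not tested.

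The genes closest in pattern were found by the root mean square difference of centred log2 levels over the 16 mice, a description without a test. For Cyp4a14 they were Etnppl (0.37), Ccdc152 (0.37) and Unc13b (0.39). Etnppl, an ethanolamine phosphate lyase, had 1207 normalized counts in Pair Vehicle, 2455 in Pair IMC, 1291 in Ethanol Vehicle and 2326 in Ethanol IMC by mean. For Cyp4a31 they were Hdc (0.44), Mpp4 (0.47) and Dgkh (0.58), and Hdc, the histidine decarboxylase, had means of 149, 286, 63.7 and 169 in the same order. For Cyp4a10, Scai (0.47) and Cox16 (0.49) were the closest. Among the members, Cyp4a10 and Cyp4a32 were the closest pair, at 0.57, nearer than Cyp4a14 and Cyp4a31 at 0.72 and than Cyp4a10 and Cyp4a31 at 1.14, the largest value among the pairs. A small value can come from low variation as well as from a like pattern. The SD of the log2 levels was 0.68 for Cyp4a10, 0.46 for Cyp4a32, 1.15 for Cyp4a31 and 0.33 for Scai. Cyp4a32 also shares sequence windows with Cyp4a10, so their reads may be split.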

How the data were processed

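The authors trimmed reads with Trim Galore, checked them with FastQC, aligned them to mm10 with STAR, and named upper quantile normalization in edgeR. The counting tool is not given in the sources used here. The labels describe paired-end reads and the methods single-end reads. The deposited signal values are read counts divided by a size factor per library: 100% of them came out as whole reads (tolerance 0.01), also in library 15, where 1 read was worth 1.01. The size factors had been set within each diet, so values were divided by a median ratio over all 16 libraries (0.940 to 0.945 in pair-fed, 1.07 to 1.08 in ethanol-fed libraries). The table held 27212 rows for 24082 Ensembl IDs, each used once.

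Genes at 10 or more in at least 4 libraries (12522) were fitted with limma 3.58.1 (R 4.3.3), using log2(value + 1), 1 mean for each group and all 16 libraries. The variance followed a trend with the mean, tests were two-sided, and p-values were adjusted by Benjamini and Hochberg with a threshold of 0.05. Alternatives were the deposited scale, quantile normalization, pseudocounts of 0.1 and 5, no filter, a mean of at least 100, no trend, only the libraries compared, each library left out, and count tests of the whole reads in edgeR 4.0.16 (TMM) and in DESeq2 1.42.0. Upper quartile normalization in edgeR, and both count tests without library 15, were added after seeing the data. The fit was tested on simulated counts with the same dispersion for all genes and no outlying mouse. That test does not cover calls that turn on an outlying mouse. Reads carry no molecular identifiers, so limits from counts cover counting error only. Sequences, positions and exon lengths are from GENCODE vM21 on GRCm38.

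The members and gene lists were chosen with earlier results of these data known. Named are the 6 members, up to 4 genes per list and contrast with the largest differences among those that passed (up to 10 PPARA targets), and the 3 genes closest in pattern to Cyp4a10, Cyp4a14 and Cyp4a31; Por and Fabp1 were named after their values were seen. For Cyp4a12a, at its floor, no closest gene is given. Some genes that this rule names are not reported here. Lists of kidney tubule, pancreas acinar, adipocyte, Kupffer, endothelial, stellate, bile duct and hepatocyte genes served to check the tissue.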

Additional observations from a re-analysis of the deposited data

Results flagged for a closer look

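In each group of 4 mice a library was sought whose gap to the next, as a share of the group's range, exceeded Dixon's 95% critical value, which chance gives in about 1 in 20 groups. Of 24 groups of values for the Cyp4a genes, 3 held such a library. Mouse 11 had 20302 normalized counts of Cyp4a10 against 3803 to 5128 in the other 3 Ethanol IMC mice, and 0.701% of reads on Cyp4a genes against 0.256% to 0.299%. In Pair IMC, mouse 4 had 5.65 reads of Cyp4a14 per read of Cyp4a10 against 3.83 to 4.06.

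The IMC effect differed between the diets, by the interaction term in limma, for 3 genes of the lists around the hydroxylases. The difference (ethanol-fed minus pair-fed, log2) was -0.91 for Cyp4f14 (adjusted p = 0.0471), -0.65 for Etfdh (adjusted p = 0.0133) and -0.88 for Acsl5 (adjusted p = 0.0482). For Etfdh the call held with each library left out, with values of -0.69 to -0.60, whereas for Cyp4f14 it was lost in 12 of the 16 fits and for Acsl5 in 13. This contrast cannot be told apart from the library numbering.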

How the results depend on the processing

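No paired analysis was possible because the 16 libraries carry 16 different numbers. For the members, 303 of 304 values under alternatives other than leaving out a library stayed on the same side of the threshold; the exception was Cyp4a31 with IMC in ethanol-fed mice, not past it with no mean-variance trend (0 members past it). With 1 library left out, the number of members past the threshold ranged from 1 to 2 for IMC in pair-fed mice, from 0 to 1 in ethanol-fed mice, from 0 to 1 for the difference between diets, from 0 to 1 for ethanol in vehicle mice and from 1 to 2 in IMC mice. The PPARA targets past it ranged from 0 to 7, 6 to 15, 1 to 1, 3 to 9 and 7 to 18 in the same order. The lowest of these came without Pair IMC mouse 6, Ethanol Vehicle mouse 1 or Ethanol IMC mice 9 or 13 (6 each), Ethanol Vehicle mouse 5 and Ethanol IMC mouse 13. With no trend 2 PPARA targets passed for IMC in pair-fed mice, and DESeq2 on whole reads, with and without library 15, gave 2 for the difference between diets.

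Of all genes, 1188 passed for IMC in pair-fed mice, 691 with only the libraries compared, 537 and 543 without Pair IMC mice 4 and 6, and 1159 in edgeR on whole reads. For the difference between diets the counts were 139, 339 in DESeq2, 114 in edgeR, 82 with no trend and 80 with no filter, 266 and 72 in DESeq2 and edgeR without library 15, and 54 to 164 with 1 library left out. Ethanol in vehicle mice gave 1491, 803 without Ethanol Vehicle mouse 5 and 974 without Pair Vehicle mouse 14, and ethanol in IMC mice gave 2064, 1368 without Ethanol IMC mouse 15 and 1344 in edgeR without it. On the deposited scale, which shifts ethanol contrasts by 0.19 (log2), ethanol gave 2801 genes higher and 199 lower in vehicle mice, against 795 and 696, and 3183 and 441 in IMC mice, against 986 and 1078; Cyp4a32 then changed sign in both, at 0.04 and 0.18, and Cyp4a14 in IMC mice was at -0.11. Cyp4a10 in IMC mice was at -0.08 in edgeR and at 0.10 in edgeR without library 15. The cause was not tested.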
